A study of Saccharomyces cerevisiae with 18 samples.

Results

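The genes described are the intron-containing genes for proteins of the large (60S) ribosomal subunit in the budding yeast Saccharomyces cerevisiae. Members were chosen by name alone: every intron-table entry whose gene name begins with RPL and a number, leaving out RPL7A, RPL7B, RPL22A, RPL22B and RPL30. That gave 47 of the 284 intron-containing genes (hosts) listed for both strains. They form 22 pairs of duplicated genes (paralogs, named A and B) and 3 genes with no second copy among the members, RPL25, RPL28 and RPL39.

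The study measured polyadenylated RNA by paired-end sequencing in yeast in which a single splicing gene could be repressed. In the Dib1 strain the GAL1 promoter drove YPR082C (DIB1), and in the Snu114 strain it drove YKL173W (SNU114). This promoter is active in galactose and repressed in glucose. Each strain was grown for 6 h in galactose medium (YPGal), which keeps the gene on, or for 4 h or 8 h in glucose medium (YPD), which represses it, with 3 libraries per group and 18 in all. Both strains are labelled as mating type alpha in the BY4742 background and share the alleles his3Δ1, leu2Δ0, met15Δ0 and ura3Δ0. No group had its driven gene under the native promoter. The Dib1 strain carries LYS2 and the Snu114 strain lys2Δ0, so the strains differ at more than the driven gene. Galactose and glucose also differ as carbon sources, so loss of the protein and the change of sugar cannot be told apart in any comparison of glucose with galactose. The labels do not say that the 3 libraries of a group came from separate cultures, and the file headers call their mean an average of technical repeats. Every SD, standard error and p-value here therefore measures the spread between these libraries, which may be technical.

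Most budding yeast genes have no intron, and the genes for ribosomal proteins are the best-known exception. The spliceosome removes an intron after recognising a donor sequence at its start, a branch site whose last adenosine attacks the donor, and an acceptor ending in AG. Dib1 is a small protein of the U4/U6.U5 particle that leaves before the spliceosome becomes active, and Snu114 is the GTPase of the U5 particle that takes part in unwinding U4 from U6. When splicing is slow, reads from the intron accumulate relative to all reads of the gene.

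The deposited gene tables held 6596 features, and 17065989 to 58615022 gene reads and 96655 to 1536697 intron reads were recovered per library. In galactose the DIB1 normalised count was 122328 in its own strain and fell to 252 and 265 at 4 h and 8 h. SNU114 was 169296 and then 1196 and 1311. The undriven gene gives a reference in the other strain, though the strains' counts were normalised separately. SNU114 averaged 2489, 3057 and 3282 in Dib1 cells in galactose and at 4 h and 8 h, and DIB1 1281, 980 and 1065 in Snu114 cells. Each driven gene thus lay far above that level in galactose and below it in glucose, where neither transcript was absent. The marker genes of mating type went against a label: MFA1, made by a-type cells, averaged 4101 normalised counts at 4 h in Dib1 cells and 15.8 at 4 h in Snu114 cells, whereas MF(ALPHA)1 averaged 23.9 and 90217 in the same libraries. Within the groups, replicate 1 of the Dib1 strain at 4 h and replicate 3 of the Snu114 strain at 8 h stood apart from their partners in intron reads. The summed shares, and counts of calls that moved, are also given without them. Medians over the members and most changes of single genes are given with these libraries only. A bulk value cannot separate fewer cells carrying an RNA from less RNA per cell.

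The introns themselves are shown first, since every later value rests on reads that fall in them. Sequence was read from the RefSeq R64 assembly of the genome, and the submitters' processing notes name sacCer3. Of the 47 introns, 39 (83.0%) began with the usual donor GTATGT, against 73.2% of all 280 introns located. RPL16A, RPL16B, RPL27A and RPL27B had GTACGT, RPL40A and RPL43B had GTATGC, RPL43A had GTATGA and RPL20A had GTGAGT. The branch motif TACTAAC was found in 46 of 47 (97.9%, against 82.5% of all introns). Only the sense strand of each intron was searched. The member without it was RPL19A, where the last CTAAC before the acceptor lay in AACTAAC. All 47 ended in an AG acceptor, 22 as CAG and 25 as TAG. Intron length ran from 147 bases in RPL2A to 561 in RPL27A, with a median of 414.

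The introns of RPL19 and RPL36 are printed because the comparison of paralogs turns on these pairs, and that of RPL18B because it held the most intron reads per gene read and per length in galactose. Capitals mark the 6-base donor, or the branch motif and the final 3 bases of the intron, and each line is written 5′ to 3′ on the strand of the gene. RPL19A lies on the minus strand (donor at chrII:415235-415259, branch site to acceptor at chrII:414754-414783) and RPL19B on the plus strand (chrII:168425-168449 and chrII:168752-168808). RPL18B lies on the minus strand (chrXIV:64426-64450 and chrXIV:64019-64074). RPL36A lies on the plus strand (chrXIII:651161-651185 and chrXIII:651579-651623) and RPL36B on the minus strand (chrXVI:76199-76223 and chrXVI:75986-76029).
RPL19A donor: GTATGTgatgcagtgaataatgaat
RPL19B donor: GTATGTttaacagtgatactaaatt
RPL19A branch site to acceptor: gaacgataatAACTAACatgactttaaCAG
RPL19B branch site to acceptor: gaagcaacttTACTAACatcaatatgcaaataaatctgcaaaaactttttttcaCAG
RPL18B donor: GTATGTattgaaatctccctcccaa
RPL18B branch site to acceptor: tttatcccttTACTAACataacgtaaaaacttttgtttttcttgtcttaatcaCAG
RPL36A donor: GTATGTgagacataaacaaggaact
RPL36B donor: GTATGTttacctgaactaatgaact
RPL36A branch site to acceptor: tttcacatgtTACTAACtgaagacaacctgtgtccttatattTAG
RPL36B branch site to acceptor: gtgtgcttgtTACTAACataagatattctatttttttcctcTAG

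Unusual donors are shown for 3 more pairs, in which at least one copy departs from GTATGT. RPL20A (chrXIII:754195-754219, minus strand) and RPL20B (chrXV:901169-901193, minus strand) differ in the donor itself, whereas both copies of RPL43 depart from the usual form, RPL43A (chrXVI:654168-654192, plus strand) and RPL43B (chrX:608307-608331, plus strand). RPL40A (chrIX:68716-68740, plus strand) ends its donor in C.
RPL20A donor: GTGAGTaaatacctactaaactatg
RPL20B donor: GTATGTaatagaatgtattgtatgc
RPL43A donor: GTATGAtatattacgcacacgattt
RPL43B donor: GTATGCatataatagaggaattgga
RPL40A donor: GTATGCaccatatccattctaaaca

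Paralogs were nearly alike in coding sequence and unlike in their introns. Coding identity between copies ran from 86.5% in RPL16 to 99.2% in RPL35, and intron identity from 27.5% in RPL2 to 65.8%. Intron reads therefore tell the copies apart more safely than gene reads do. In RPL35, 76.9% of the 100-base windows of one copy's coding sequence were also present in the other, so its gene reads are uncertain between copies. The next highest were RPL14 at 17.3%, RPL2 at 15.5% and RPL42 at 11.7%. Intron reads are divided by gene reads in the ratios below, so the ratios share this uncertainty, those of RPL35 most.

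The first question was how much of the members' RNA still held intron reads. Intron reads summed over the 47 members, as a percent of their summed gene reads, was higher in every glucose library of the Dib1 strain than in galactose, and highest at 8 h. The 3 galactose libraries gave 5.78%, 5.53% and 5.69%, the 4 h libraries 32.7%, 19.8% and 19.3%, and the 8 h libraries 48.8%, 47.8% and 47.4%. Group means were 5.67% ± 0.126, 24% ± 7.61 and 48.0% ± 0.715 (SD, n = 3), and no library of one group reached the range of another. At 4 h, replicate 1 held the highest value by far. Without it the 4 h mean was 19.6%, and the change from galactose was 1.79 on the log2 scale in place of 2.04.

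Per gene read, the Snu114 strain was lower at 4 h than in galactose and higher at 8 h. Its galactose libraries gave 7.18%, 6.56% and 6.41%, its 4 h libraries 4.05%, 4.09% and 4.79%, and its 8 h libraries 17.8%, 19.5% and 30.6%. Group means were 6.72% ± 0.406, 4.31% ± 0.420 and 22.6% ± 6.94 (SD, n = 3). Again the groups did not overlap, with 4 h lowest and 8 h highest. Without replicate 3 the 8 h mean was 18.6%, and the change from galactose was 1.47 on the log2 scale in place of 1.71. The summed share changed 4.10-fold and 8.48-fold in the Dib1 strain and 0.641-fold and 3.27-fold in the Snu114 strain, at 4 h and 8 h against galactose. Each of these had a two-sided exact permutation p of 0.1, which is the smallest that 3 libraries against 3 allow. The change taken over both strains, permuting within strain, had an exact permutation p of 0.13 at 4 h and 0.005 at 8 h. At 4 h the strains moved in opposite directions, so the change over both partly cancels and this p does not measure the change in either strain.

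**Figure D1:**
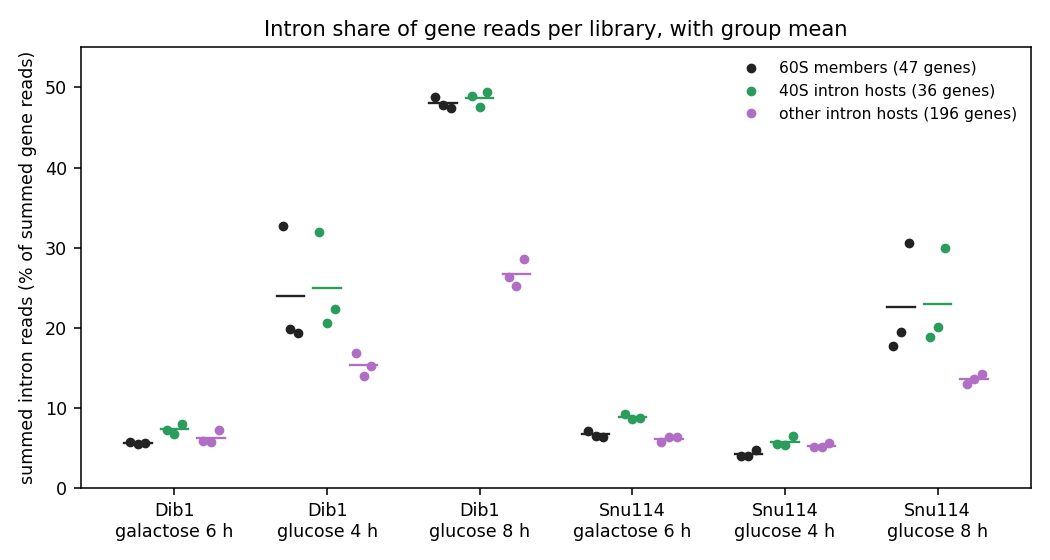
Intron reads as a percent of gene reads, summed over the 47 60S members, the 36 intron-containing 40S genes and 196 other intron-containing genes; each point is a library and each line the mean of 3. The 60S and 40S points lie close together at 8 h in the Dib1 strain (48.0% and 48.7%), above the other genes (26.7%).

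The 36 intron-containing genes of the small (40S) subunit followed the same course, at 7.35%, 25% and 48.7% in Dib1 cells and 8.91%, 5.79% and 23% in Snu114 cells. The 196 other hosts reached 26.7% and 13.7% at 8 h. Members made up 32.4% of all intron reads in galactose in the Dib1 strain and 41.1% at 8 h, while their part of all gene reads went from 3.02% to 2.20%. In the Snu114 strain the same parts were 34.8% and 43.1% of intron reads and 3.07% and 2.93% of gene reads.

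Single members were then tested by their intron ratio, the log2 of intron reads over gene reads in each library. In the Dib1 strain all 47 rose at 4 h, with a median change of 2.21 on the log2 scale (83.9% of the 261 hosts tested rose), and all 47 rose at 8 h, with a median of 3.13 (88.9% of hosts). Between 4 h and 8 h, 40 rose further (68.2% of hosts), with a median of 1.09. This count belongs to the ratio: with intron reads scaled like the gene counts 22 rose and 4 were below 0, and on the intron table's own scale none rose and 33 were below 0. The 7 that did not pass were RPL14B, RPL23B, RPL27A, RPL27B, RPL33B, RPL36A and RPL43A, with changes from 0.26 for RPL36A to 0.74 for RPL43A. At 4 h the largest changes were those of RPL23B at 3.37, RPL19B at 3.34, RPL21A at 3.13 and RPL31A at 3.12, and the smallest those of RPL35B at 0.52, RPL28 at 0.76, RPL18B at 0.95 and RPL36B at 0.96. Between 4 h and 8 h RPL19B, RPL16B, RPL33A and RPL2A moved most, by 1.88, 1.87, 1.75 and 1.62. RPL27A was among those already far up at 4 h: RPL27A had 9.08%, 6.00% and 7.38% in galactose, 81.9%, 43.6% and 48.7% at 4 h and then 71.7%, 68.7% and 73.4%.

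No member's intron ratio in Snu114 cells was above its galactose value at 4 h, and 16 of 47 fell by the test (16.2% of the 260 hosts fell), with a median change over the members of -0.63. This direction belongs to the ratio: with intron reads scaled like the gene counts, 19 of 47 were above 0 and the median was -0.09. On the intron table's own scale 29 were above 0, and neither scale called a fall. The largest falls were those of RPL21B at -1.39, RPL31B at -1.36, RPL39 at -1.34 and RPL31A at -1.32, and the values nearest 0 were RPL2A at -0.01, RPL42B at -0.03, RPL26A at -0.13 and RPL36B at -0.17. Of these only RPL31B and RPL39 kept their call without each library in turn. The count of 16 also moved with single libraries. It was 7 and 6 without replicate 1 or 2 at 4 h, 6, 10 and 10 without galactose replicate 1, 2 or 3, and 32 without replicate 3 at 8 h.

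At 8 h, 45 of 47 rose against galactose in the Snu114 strain with a median of 1.82 (81.9% of hosts), and all 47 rose from 4 h with a median of 2.52 (83.5% of hosts). RPL18B and RPL28 did not pass against galactose, at 0.13 ± 0.18 (SE, adjusted p = 0.53) and 0.20 ± 0.15 (adjusted p = 0.24). The largest changes against galactose were those of RPL19B at 3.66, RPL6A at 2.79, RPL23B at 2.69 and RPL31A at 2.67. RPL26B at 0.75 and RPL35B at 0.85 were the smallest that passed, and RPL26B lost its call without galactose replicate 2 or 8 h replicate 3. From 4 h, RPL19B rose by 4.21, RPL31A by 3.98, RPL6A by 3.85 and RPL31B by 3.83, and RPL36B by 1.07, the least. Across the 47 members the 8 h changes of the strains, which share no library, had a Pearson r of 0.90 and a Spearman rho of 0.90. At 4 h the same description gave an r of -0.57.

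Per length the members differed widely in galactose, with the driven genes on. Intron reads per base of intron, as a percent of all gene reads (intron reads included) per base of coding sequence, ran in galactose from 0.934% in RPL19B to 24.5% in RPL18B in the Dib1 strain (median 6.02%) and from 1.07% in RPL19B to 49.2% in RPL18B in the Snu114 strain (median 6.54%). After RPL18B the highest in both strains were RPL14B, at 22.1% and 25.9%, and RPL36A, at 19.5% and 23.2%. RPL33A followed RPL19B at the low end, at 0.983% and 1.29%. At 8 h the range was 19.6% in RPL33A to 112% in RPL16A in the Dib1 strain and 6.56% in RPL16B to 73.7% in RPL16A in the Snu114 strain. With gene minus intron reads below the line, chosen after seeing the data, the highest at 8 h was instead RPL36A, at 431% and 204%.

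**Figure D2:**
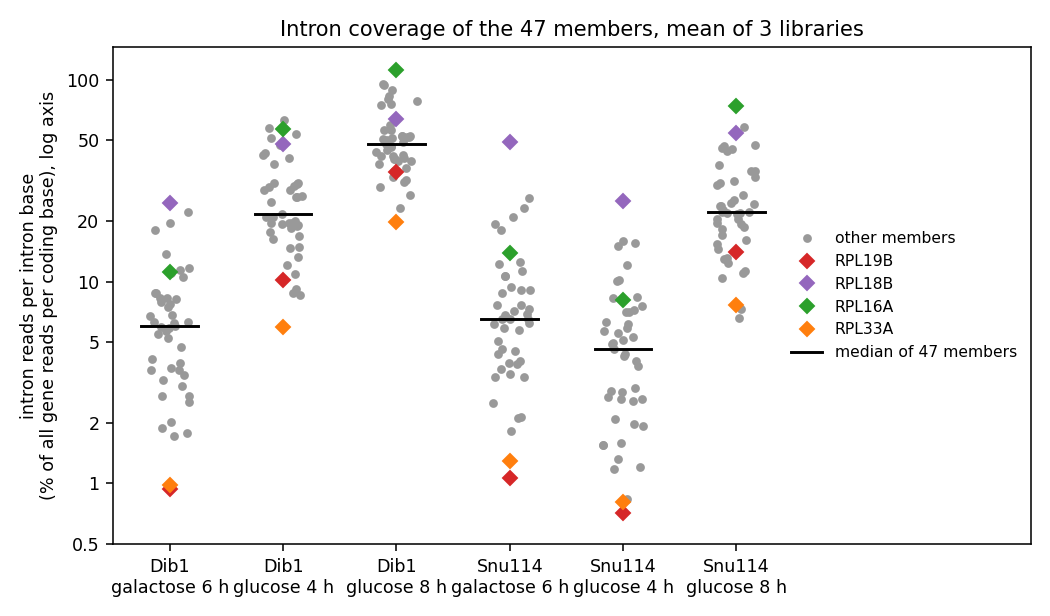
Intron reads per base of intron as a percent of all gene reads per base of coding sequence (log axis) for the 47 members in the 6 groups; each point is a gene's mean of 3 libraries and the line is the median of the 47. RPL19B lies at the bottom in galactose (0.934% and 1.07%) and nearer the median at 8 h, and RPL18B lies at the top in galactose (24.5% and 49.2%).

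The proteins around the exit of the tunnel through which the new chain leaves the ribosome are made by 12 members: both copies of RPL17, RPL19, RPL26, RPL31 and RPL35, and RPL25 and RPL39. In Dib1 cells all 12 rose, with medians of 1.90 at 4 h and 2.96 at 8 h, where 83.9% and 88.9% of hosts rose. In Snu114 cells 4 of the 12 fell at 4 h (16.2% of hosts), and all 12 rose at 8 h with a median of 1.73 (81.9% of hosts).

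RPL39, a small protein that lines the tunnel, had groups well apart from each other. In Dib1 cells its intron share was 3.72%, 3.96% and 5.12% in galactose, then 18.5%, 21.3% and 23.9% at 4 h and then 58.1%, 54.3% and 59.9% at 8 h, with no overlap between groups (2.32 ± 0.17 and 3.76 ± 0.17). Snu114 libraries had 5.14%, 5.80% and 4.76%, then 1.79%, 2.11% and 2.33%, then 26.1%, 27.9% and 28.0%. The 4 h libraries all lay below galactose and the 8 h libraries all above (-1.34 ± 0.17 with limma adjusted p = 0.00155, and 2.39 ± 0.17).

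RPL25, which holds the docking site of the signal recognition particle, changed less. Its Dib1 libraries gave 4.92%, 5.19% and 5.06% in galactose, 12.3%, 14.4% and 11.5% at 4 h and 36.3%, 35.7% and 29.8% at 8 h. For Snu114 the values were 6.99%, 6.69% and 5.15%, then 4.39%, 5.13% and 4.82%, then 11.8%, 13.0% and 12.8%. Every 8 h library lay above galactose, while the 4 h change of -0.38 ± 0.17 did not pass (adjusted p = 0.145).

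Within the tunnel group RPL31A and RPL35B differed widely. RPL31A went from 3.78%, 2.58% and 3.67% in galactose to 46.1%, 19.7% and 26.1% at 4 h in the Dib1 strain, a change of 3.12 ± 0.28. RPL35B went from 12.9%, 12.4% and 13.7% to 16.0%, 20.9% and 19.2%, a change of 0.52 ± 0.14 (limma adjusted p = 0.00513). Both rose without overlap, RPL35B by the least of the 47.

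Members known for resistance to the translation inhibitor cycloheximide are RPL28 (also called CYH2), RPL42A and RPL42B. Their medians were 1.15 and 2.07 in Dib1 cells and -0.37 and 1.25 in Snu114 cells, each nearer 0 than the median of all 47. RPL28 had much intron signal from the start: in the Dib1 strain 14.6%, 14.1% and 10.3% in galactose, 26.4%, 23.2% and 16.8% at 4 h and 48.2%, 46.6% and 39.8% at 8 h. Snu114 libraries gave 25.4%, 21.8% and 18.7%, then 12.3%, 11.1% and 10.8%, then 23.7%, 25.3% and 26.2%. The Snu114 libraries at 8 h overlapped those in galactose, and those at 4 h lay below both (-0.94 ± 0.15, limma adjusted p = 0.00543).

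The ubiquitin fusion genes RPL40A and RPL40B encode a ribosomal protein made as one chain with ubiquitin. Both rose at 8 h in both strains, with medians of 3.53 and 1.78, beside 88.9% and 81.9% of hosts. RPL40A went from 2.25%, 2.22% and 1.54% to 29.8%, 34.2% and 26.8% at 8 h in the Dib1 strain, and RPL40B from 3.06%, 3.70% and 3.66% to 31.0%, 32.2% and 28.0%. The copies began apart and ended with overlapping shares.

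The remaining 30 members had medians of 2.27 and 3.25 in the Dib1 strain, and -0.67 with 11 falls (16.2% of hosts) and 1.89 with 29 rises (81.9% of hosts) in the Snu114 strain. At 8 h in the Dib1 strain the largest changes after RPL19B were those of RPL21A at 4.74, RPL33A at 4.35 and RPL31A at 4.16. RPL21A went from 1.88%, 1.83% and 1.12% to 45.0%, 45.7% and 36% at 8 h. The smallest were RPL18B at 1.39, RPL36A at 1.54, RPL28 at 1.80 and RPL35B at 1.85, all of which had started high.

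Intron sequence and length were set beside these changes as a description. The 39 members with a GTATGT donor had median changes of 1.90 and 3.09 in the Dib1 strain and the 8 with another donor 2.32 and 3.30. At 8 h in the Snu114 strain the medians were 1.72 and 2.04. Introns no longer than the median of 414 bases (24 members) had medians of 2.27 and 3.18 in the Dib1 strain, and longer ones (23) 1.68 and 2.96. Over the 47 members intron length and the 8 h change had a Pearson r of -0.15 in the Dib1 strain.

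The strains were compared directly in one fit of all 18 libraries. The 4 h change of the intron ratio was lower in the Snu114 strain for all 47 members, by a median of 2.83 on the log2 scale, coded as -2.83 for Snu114 minus Dib1 (82% of 261 hosts). Differences ran from -4.44 ± 0.49 for RPL31A to -0.78 ± 0.18 for RPL35B. At 8 h, 45 of 47 differed in the same direction with a median of -1.28 (57.5% of hosts). RPL14B and RPL36A did not pass, at -0.78 (adjusted p = 0.056) and -0.63 (adjusted p = 0.080). In galactose 2 members were higher in the Snu114 strain (2.68% of hosts): RPL18B by 1.00 ± 0.18 (limma adjusted p = 0.0034) and RPL28 by 0.76 ± 0.18 (adjusted p = 0.023). One of these calls was lost without Dib1 galactose replicate 3, or without Snu114 galactose replicate 1 or 2, which left 1.

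Paralogs were compared by subtracting the intron ratio of the B copy from that of the A copy in each library. The groups were then compared on this difference. The medians of the A and B copies lay close together: the 22 A copies had medians of 2.25 and 3.30 and the 22 B copies 2.22 and 3.11 in the Dib1 strain, and at 8 h in the Snu114 strain 1.90 and 1.80. Levels were also compared within pairs. Per length, all 3 libraries of A lay above all 3 of B in 6 pairs in galactose in the Dib1 strain, B lay above A in 10, and 6 overlapped. At 8 h these counts were 6, 7 and 9. For Snu114 they were 5, 7 and 10 in galactose and 4, 3 and 15 at 8 h. The same count was not made over all intron pairs tested, so it does not set the member pairs apart from others.

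The RPL19 copies differed widely in galactose. In Dib1 cells RPL19A gave 5.93%, 5.55% and 6.75% in galactose, 19.4%, 17.5% and 16.3% at 4 h and 44.3%, 42.4% and 42.1% at 8 h. RPL19B gave 0.621%, 0.722% and 0.545%, then 10.5%, 5.83% and 4.15%, then 25.7%, 24.7% and 19.9%. The A copy lay above the B copy in each group, and the gap narrowed: per length the A value was 7.33 times the B value in galactose, 1.97 times at 4 h and 1.39 times at 8 h.

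Among Snu114 libraries RPL19A gave 6.23%, 6.29% and 5.80% in galactose, 4.92%, 4.39% and 4.92% at 4 h and 17.6%, 18.7% and 20.9% at 8 h. RPL19B gave 0.940%, 0.642% and 0.581%, then 0.526%, 0.408% and 0.515%, then 6.53%, 8.05% and 13.6%. Per length the ratio of A to B was 6.43, 7.45 and 1.55, and at 8 h the copies overlapped per length. The A minus B difference in the 4 h change was 0.19 ± 0.31 in this strain (adjusted p = 0.67).

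RPL19B alone rose 10.1-fold at 4 h and 37.2-fold at 8 h in the Dib1 strain (3.34 ± 0.32 and 5.22 ± 0.32) and 12.6-fold at 8 h in the Snu114 strain (3.66 ± 0.34). The A minus B difference was -1.80 ± 0.31 at 4 h (limma adjusted p = 2.7e-05) and -2.39 ± 0.31 at 8 h (adjusted p = 9.7e-08) in the Dib1 strain, and -2.02 ± 0.31 at 8 h (adjusted p = 0.00086) in the Snu114 strain. Each was called whichever of the strain's 9 libraries was left out. With gene minus intron reads as the denominator they were -1.70, -2.05 and -1.94, also called. RPL19A is the member whose intron lacks TACTAAC, as printed above, and the copies' introns measure 506 and 384 bases. Their coding sequences are 94.0% identical.

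RPL18B had much intron signal from the start. Its 8 h change against galactose was the smallest of the 47 in both strains, at 1.39 in Dib1 cells and 0.13 in Snu114 cells. In Dib1 cells it gave 20.9%, 17.6% and 18.1% in galactose, 47.2%, 31.1% and 32.7% at 4 h and 48.3%, 47.5% and 52.1% at 8 h. Its 4 h and 8 h libraries all lay above galactose, and replicate 1 at 4 h came close to the 8 h values. Among Snu114 libraries it gave 39.7%, 34.4% and 39.5%, then 20.3%, 16.6% and 21.1%, then 37.1%, 35.4% and 53.7%. At 4 h every library lay below galactose, and at 8 h the libraries straddled their galactose values. Without 8 h replicate 3 the 8 h change of RPL18B was -0.06. Its intron has the usual donor and branch motif.

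**Figure D3:**
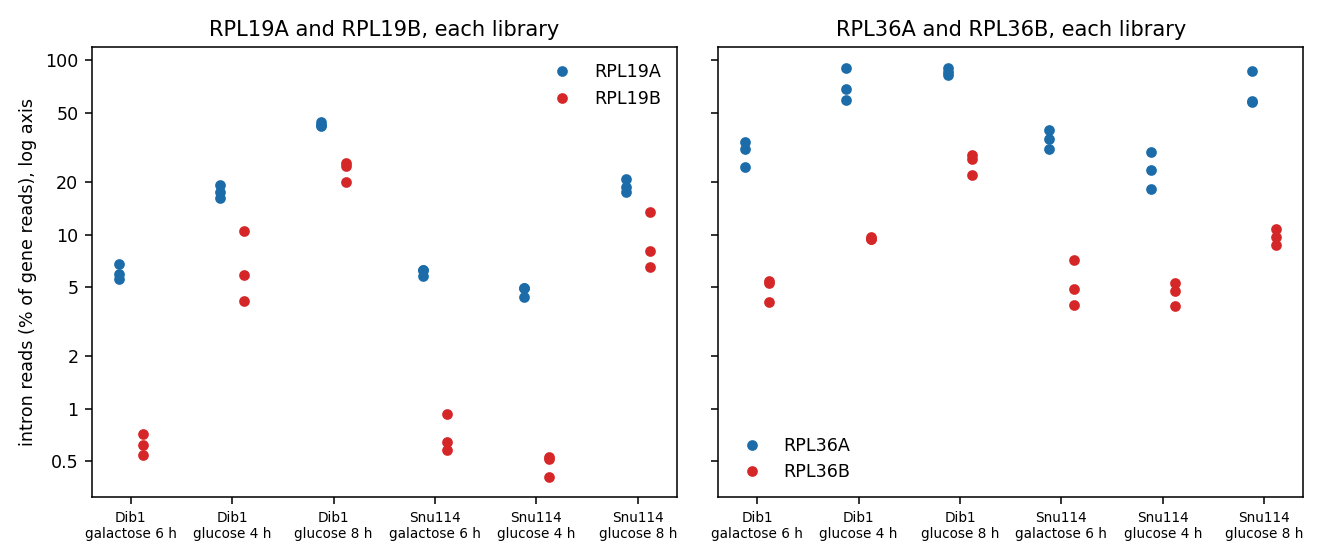
Intron reads as a percent of gene reads (log axis) in each of the 18 libraries for RPL19A and RPL19B (left) and RPL36A and RPL36B (right); each point is a library. RPL19B lies below RPL19A in every group, with a narrower gap at 8 h than in galactose, and RPL36B lies below RPL36A in every group.

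In all, 1 pair rose and 2 fell (A minus B) at 4 h in the Dib1 strain, against 12.2% and 9.76% of the 41 pairs tested. Beside RPL19 these were RPL23 at -0.84 ± 0.23 (limma adjusted p = 0.0053) and RPL35 at 0.75 ± 0.26 (adjusted p = 0.030). RPL23B, whose protein is bound by a factor that keeps the subunits apart, held 59.0%, 22.6% and 23.9% at 4 h, against 36.6%, 18.6% and 14.0% for RPL23A. The RPL35 call was lost without galactose replicate 2 or 3, and without replicate 1 at 4 h, where the value was 0.43. The rising count was 2, 2, 3 and 3 without 4 h replicate 1, 2 or 3 or galactose replicate 1.

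At 8 h in the Dib1 strain 5 pairs rose and 2 fell (24.4% and 12.2% of pairs). Of the rises, 4 were RPL33 at 0.93 ± 0.37 (limma adjusted p = 0.048), RPL40 at 0.79 ± 0.25 (0.013), RPL21 at 0.76 ± 0.23 (0.012) and RPL34 at 0.63 ± 0.24 (0.037). The falls were RPL19 and RPL36. RPL33 lost its call without any galactose replicate or 8 h replicate 1 or 2, RPL40 without galactose replicate 3 or 8 h replicate 2, RPL21 without 8 h replicate 1 or 2, and RPL36 without galactose replicate 1 or 3 or 8 h replicate 1 or 2. The count of 5 became 3 without galactose replicate 2, and 2 and 1 without 8 h replicate 1 or 2. The count of 2 became 1 without galactose replicate 1 or 3, or without 8 h replicate 1 or 2. With gene minus intron reads as the denominator, 1 pair rose and 1 fell.

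RPL36 shows how the denominator enters. In Dib1 cells RPL36A held 31%, 24.5% and 33.9% in galactose, 90.5%, 59.2% and 68.8% at 4 h and 85.5%, 82.4% and 90.2% at 8 h. RPL36B held 4.13%, 5.26% and 5.41%, then 9.38%, 9.68% and 9.47%, then 27.3%, 28.4% and 22%, and lay below RPL36A in every library. Snu114 libraries gave 35.3%, 31.2% and 39.9%, then 23.4%, 18.4% and 29.8%, then 58.2%, 57.8% and 86.8% for RPL36A, and 4.90%, 7.15% and 3.95%, then 3.91%, 5.28% and 4.76%, then 9.73%, 10.8% and 8.74% for RPL36B. Whether a high share limited the further change of RPL36A was not tested. Per gene read, the A minus B difference at 8 h in the Dib1 strain was -0.85 ± 0.32 (limma adjusted p = 0.036). With gene minus intron reads below the line it was 1.15, the reverse direction.

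In the Snu114 strain at 8 h, 1 pair rose (9.76% of pairs) and 2 fell (7.32%), RPL19 and RPL23, the latter at -0.97 ± 0.28 (limma adjusted p = 0.037). The RPL23 call was lost without any one of 4 h replicate 3, galactose replicate 1 or 2, or 8 h replicate 2 or 3, which left 1. At 4 h limma called none of the 22 pairs, with 3 at an unadjusted p under 0.05. From 4 h to 8 h, 4 rose and 1 fell (22% and 14.6% of pairs), among them RPL16 at 1.10, RPL6 at 0.74, RPL17 at 0.55 and RPL19 at -2.21. The rising count was 1 without 4 h replicate 1 or 2. In the Dib1 strain that interval gave 1 fall, RPL36 at -1.17 (2.44% of pairs). Over the 22 pairs the 8 h differences of the strains had a Pearson r of 0.79, with the same sign in 16.

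**Figure D4:**
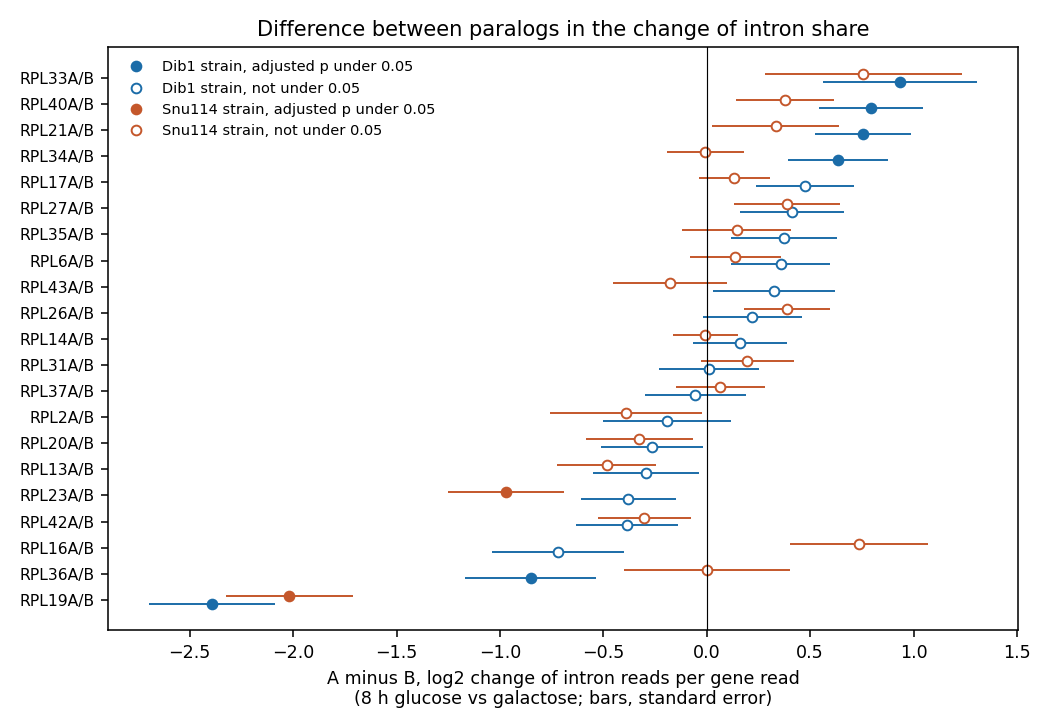
Difference between paralogs in the 8 h change of intron reads per gene read, as A minus B on the log2 scale, for 21 of the 22 pairs in the Dib1 (blue) and Snu114 (orange) strains; bars are standard errors and filled points have an adjusted p under 0.05. RPL19 lies far to the left in both strains (-2.39 and -2.02).

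The paralog difference was also compared between strains. At 4 h 1 pair was higher and 3 lower in the Snu114 strain (7.32% and 22% of pairs): RPL19 at 1.98 ± 0.43 (limma adjusted p = 0.0021), RPL35 at -1.05 ± 0.39 (0.045), RPL17 at -0.95 ± 0.27 (0.010) and RPL34 at -0.90 ± 0.28 (0.018). The lower count was 1 without Dib1 4 h replicate 1, Dib1 galactose replicate 2 or Snu114 4 h replicate 2. At 8 h limma called no pair, with 2 at an unadjusted p under 0.05. RPL16 had the widest 8 h estimate, 1.46 ± 0.50 (adjusted p = 0.33): RPL16A went to 54.4%, 57.5% and 50.7% in Dib1 cells and 29.7%, 33% and 44.1% in Snu114 cells, and RPL16B to 23.8%, 25.5% and 21% and to 5.35%, 5.70% and 3.76%.

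Total RNA of the genes was compared by their normalised gene counts. In the Dib1 strain at 4 h, 4 members rose (5.17% of 6447 genes): RPL27A by 0.92 ± 0.18 (limma adjusted p = 0.0077), RPL36A by 0.82 ± 0.19 (0.018), RPL43B by 0.71 ± 0.17 (0.022) and RPL14B by 0.56 ± 0.12 (0.012). The count was 9 without 4 h replicate 1, and 1 and 2 without galactose replicate 1 or 3. With the replicate number as a block it was 7, a count without the share of all genes called that way. RPL14B lost its call without galactose replicate 1, RPL36A without galactose replicate 1 or 3 and RPL43B without any of the 3, whereas RPL27A kept its call throughout. RPL36A had normalised counts of 3962, 4329 and 3146 in galactose, 9003, 5678 and 5835 at 4 h and 6798, 6108 and 6794 at 8 h, with both later groups wholly above galactose.

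At 8 h 3 members had risen (13.7% of genes) and 19 had fallen (15.1%), with a median over the 47 of -0.51. RPL36A, RPL27A and RPL14B were the ones still up, at 0.80, 0.63 and 0.56. The falls named by the rule were RPL2A at -1.66 ± 0.36 (limma adjusted p = 0.0070), RPL31B at -1.51 ± 0.18 (0.00028), RPL16A at -1.26 ± 0.13 (9.5e-05) and RPL19A at -1.21 ± 0.13 (0.00015). RPL2A, whose protein sits by the peptidyl transferase centre, went from 20149, 25490 and 26478 to 7102, 7190 and 8385, with no overlap. At 4 h it ranged from 7640 in replicate 1 to 25735 in replicate 3.

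The count of 19 was 11 without galactose replicate 2, and 12, 11 and 12 without 8 h replicate 1, 2 or 3. The count of 3 rises was 1 without 8 h replicate 1. RPL27A lost its call without galactose replicate 1 or 3 or any 8 h replicate, and RPL36A without 8 h replicate 1. From 4 h to 8 h 15 fell (5.79% of genes), with a median of -0.54. That count was 32 without 4 h replicate 1 and 8 without 4 h replicate 3, and 6, 5 and 6 without 8 h replicate 1, 2 or 3.

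In Snu114 cells all 47 gene levels were above galactose at 4 h, with a median of 0.58, and 6 passed (3.78% of genes): RPL18B at 1.19, RPL26A at 0.71, RPL17B at 0.66, RPL35B at 0.63, RPL16A at 0.61 and RPL6B at 0.49. This count was 0 without 4 h replicate 1 or 2 or galactose replicate 1, 1 without galactose replicate 2 or 3, 3 without 8 h replicate 1 or 2, 10 without 4 h replicate 3 and 19 without 8 h replicate 3. With the replicate number as a block it was 34. The share of all genes called with the block was not computed, so 34 cannot be set against 3.78%. At 8 h 1 member had fallen (5.71% of genes), RPL19A by 0.66 on the log2 scale, coded -0.66 ± 0.17 (limma adjusted p = 0.040). It was lost without any galactose replicate, 4 h replicate 1 or 2, or 8 h replicate 1 or 2. From 4 h to 8 h 6 fell (0.667% of genes), with a median of -0.67. None passed without 4 h replicate 1 or 2 or 8 h replicate 2, and 3 passed without galactose replicate 1 or 2 or 8 h replicate 1. With the block 28 fell, again without a share of all genes to set beside it.

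The 24 RPL genes of the gene table with no intron entry served as a comparison. Their median changes in Dib1 cells were -0.06 at 4 h and -0.39 at 8 h, and in Snu114 cells 0.72 and 0.16. Of these 24, 4 fell at 8 h in the Dib1 strain and 1 rose at 4 h in the Snu114 strain.

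No member had more intron than gene reads in any library, but 5 to 7 other hosts did in each, so the tables do not settle whether gene counts hold reads lying wholly inside an intron. Subtracting intron from gene reads, a step chosen after seeing the data, moved the levels down where intron reads were many. In the Dib1 strain the median change became -0.38 at 4 h and -1.35 at 8 h, with 1 fall at 4 h (10.3% of genes) and 46 of 47 at 8 h (16.5%). Every rise was reversed. At 4 h RPL27A gave -0.38, RPL36A -0.79, RPL43B -0.21 and RPL14B -0.51, and at 8 h RPL36A gave -1.57, RPL27A -1.06 and RPL14B -1.35. For Snu114 the medians were 0.62 and -0.42, with 4 rises at 4 h (3.82%) and 5 falls at 8 h (6.08%). The counting rule is not given in the sources used here.

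**Figure D5:**
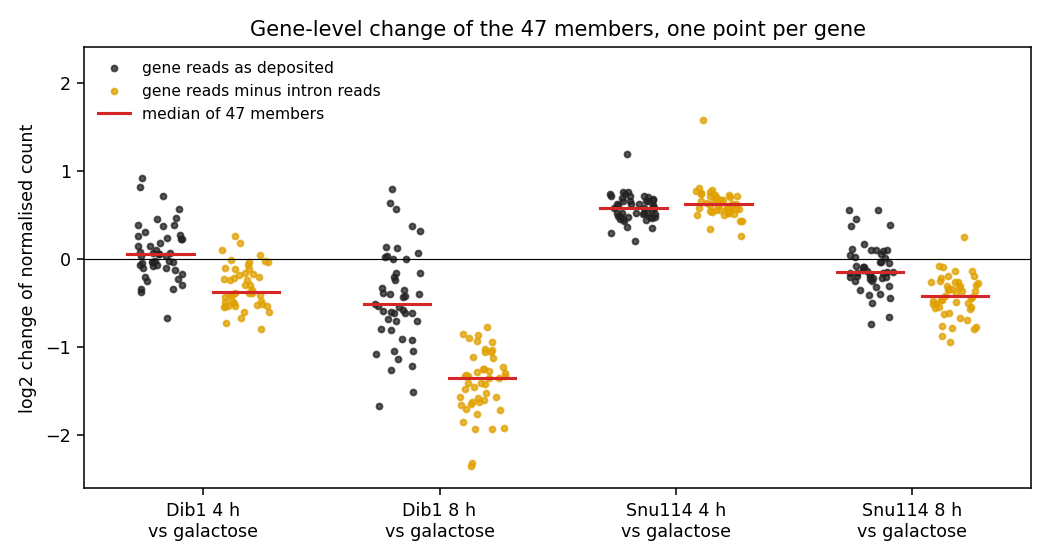
Change of the normalised gene count of the 47 members against galactose (log2), from gene reads as deposited (black) and from gene minus intron reads (yellow); each point is a gene and each red line the median. At 8 h in the Dib1 strain the median moves from -0.51 to -1.35, and at 4 h in the Snu114 strain it stays above 0 both ways (0.58 and 0.62).

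Paralogs also shifted in their balance of gene reads, which rests on how the counting shared reads between near-identical copies. The paralog intron ratios carry the same gene reads in their denominators. At 8 h in the Dib1 strain the A to B balance rose in 6 of 22 pairs (27.9% of the 61 pairs tested) and fell in 4 (19.7%). RPL31 rose by 1.51 ± 0.16 (limma adjusted p = 0.00012), RPL27 by 1.18 ± 0.21 (0.0018) and RPL36 by 1.71 ± 0.38 (0.0068), with RPL17, RPL37 and RPL40 at 0.64, 0.56 and 0.45. RPL2 fell, at -1.27 ± 0.13 (0.00010), and so did RPL14 at -0.89, RPL16 at -0.69 and RPL13 at -0.45. As deposited, RPL31B went from 13233, 12694 and 9469 normalised counts in galactose to 4486, 4405 and 3492 at 8 h, below every galactose library, while RPL31A had 14887, 16275 and 13188 and then 14960, 14532 and 14638, which overlap. From gene minus intron reads both copies were lower at 8 h: RPL31A averaged 14294 and then 6009, and RPL31B 11489 and then 2253.

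The A copy was also given as a percent of the reads per kilobase of both copies, with intron reads included. In the Dib1 strain RPL31A held 55.6%, 64.1% and 78.1% across galactose, 4 h and 8 h. In the Snu114 strain RPL31A held 56.0%, 55.5% and 65.7%. RPL2A held 54.7%, 46.0% and 33.4%, and 52.5%, 53.4% and 38.4%. RPL27A held 56.9%, 70.9% and 75.0%, and 58.6%, 57.0% and 70.3%. These percents carry the intron reads of RPL27A. From gene minus intron reads RPL27A averaged 15444, 12830 and 7373 in the Dib1 strain, and RPL27B 11695, 8089 and 3806. With intron reads subtracted, limma called no member pair at 4 h in the Dib1 strain. These 3 pairs are among those called in the same direction at 8 h in both strains, so their agreement comes with the choice of pairs.

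The 4 falls at 8 h in the Dib1 strain were 1 without galactose replicate 3 or 8 h replicate 1 or 2 and 2 without 8 h replicate 3, and 8 with the replicate block. From gene minus intron reads 3 pairs rose, and RPL36 gave -0.30 in place of 1.71. At 4 h 1 pair rose, RPL27 at 0.87, and 1 fell, RPL2 at -0.57 (4.92% of pairs each), against 3 and 3 with the block. The RPL27 call was lost without 4 h replicate 1 or 3 or galactose replicate 1 or 2. The RPL2 call was lost without 4 h replicate 2 or galactose replicate 1 or 3, and without 4 h replicate 1 there were 2 falls. Between 4 h and 8 h 2 pairs rose and 1 fell (11.5% and 8.2% of pairs). The rises became 1 without 4 h replicate 2 or 3, any galactose replicate or 8 h replicate 1 or 2, and the block gave 5 falls. Counts with the block are given without the share of all pairs and do not compare member pairs with others.

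In the Snu114 strain at 8 h 2 pairs rose and 4 fell (11.5% of pairs each). RPL27 rose by 0.76 ± 0.17 (limma adjusted p = 0.014) and RPL31 by 0.60 ± 0.11 (0.0074), and RPL2 fell, at -0.85 ± 0.08 (0.00026), with RPL14 at -0.60, RPL19 at -0.45 and RPL13 at -0.40. The 2 rises became 1 without galactose replicate 1 or 3, and the 4 falls 1 without either of these and 2 without 8 h replicate 2. From 4 h to 8 h 4 rose and 3 fell (13.1% and 11.5% of pairs). At 4 h limma called none of the 22, with 3 at an unadjusted p under 0.05. The 8 h balance changes of the strains had a Pearson r of 0.88 over the 22 pairs, with the same sign in 19.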

How the data were processed

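Polyadenylated RNA was sequenced after a stranded library preparation, per the labels' protocols. Per the submitters' processing notes the tools were Trimmomatic, STAR, HTSeq and DESeq2 with sacCer3; versions, the strand setting and the treatment of reads mapping to several places are not given in the sources used here. The authors deposited normalised counts (a signal on their size-factor scale) per gene and per intron, with log2 fold changes and p-values of their own. Dividing each deposited value by its library's step gave whole reads (100% within 0.001), and these were used for ratios.

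With R 4.3.3 and limma 3.58.1, log2((intron reads + 0.5)/(gene reads + 0.5)) was tested over the hosts with a mean of at least 20 gene reads (261 for Dib1, 260 for Snu114; all 47 members passed), and log2(normalised count + 1) over 6447 genes. Both used limma-trend on the 9 libraries of a strain, or on 18 for the strain difference, with Benjamini-Hochberg adjustment over all features tested and a threshold of 0.05. Paralog fits used the A minus B difference within each library (41 pairs for introns, 61 for genes), with 22 member pairs in each. ± after a log2 change is a standard error. The script recovered known changes in simulated data, in which reads varied independently between genes. That simulation does not cover a library in which many members shift together.

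The rule named the 3 members with no partner, the 4 largest and 4 smallest changes of the intron ratio per comparison, members not passing where these were 5 or fewer, the 6 pairs with the largest A minus B differences per comparison with galactose and the 4 with the largest change of gene balance, the 3 highest and 3 lowest intron shares in galactose, and up to 4 changes of gene level in each direction; others were named after their values were seen. The values of 1 member and its paralog comparison enter the counts but are not reported here. The members and lists were chosen with earlier results of these data known. Replicate numbers were checked for pairing by correlating the deviations of same-numbered libraries. At the gene level in the Dib1 strain all correlations lay from 0.12 to 0.64. In the Dib1 intron ratio they ran from -0.18 to 0.49. In the Snu114 strain not all were above 0, with lowest values of -0.15 at the gene level and -0.16 in the intron ratio. Pairing was therefore not settled outside the Dib1 gene level, and the main fits did not use it at any level. With the block the Dib1 gene level gave 7 rises at 4 h, 3 rises and 21 falls at 8 h and 20 falls from 4 h to 8 h. Without it these were 4, 3, 19 and 15. These counts are for members only, without the share of all genes. The block moved Snu114 gene-level counts widely. Precision rests on 3 libraries a group. Alternatives were edgeR 4.0.16, DESeq2 1.42.0, other offsets, filters, scales and denominators, a replicate block, and leaving out each library.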

Additional observations from a re-analysis of the deposited data

Results flagged for a closer look

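All flagged results concern a change against galactose that differed between the strains, tested as the difference itself (Snu114 minus Dib1, limma over 18 libraries). At 4 h the intron ratio change of 47 members differed, with a median of -2.83 on the log2 scale. At 8 h it differed for 45 members, with a median of -1.28. For the paralog differences (A minus B) at 4 h, RPL19A/B differed between strains by 1.98, RPL35A/B by -1.05, RPL17A/B by -0.95 and RPL34A/B by -0.90. The strains also differ in LYS2 and in the mating-type genes given with the library totals, and the part of these in the differences was not tested. No member value was tested for single outlying libraries, since each group has 3.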

How the results depend on the processing

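Of the recomputed values for single members and pairs, 1570 kept direction and side of the threshold, 201 lost their call, 22 gained one and 45 changed sign. The counts of calls below are for members and member pairs only. They are given without the share of all features and do not compare members with other genes. Scale mattered most for the introns. Intron reads on the intron table's own scale, whose construction sets the typical host to about 0, called 25 members up and 7 down at 4 h and 20 up and 8 down at 8 h in the Dib1 strain, 2 up at 4 h and 17 up and 6 down at 8 h in the Snu114 strain, and from 4 h to 8 h 0 up in Dib1 and 21 up and 13 down in Snu114. On the gene scale 22 rose from 4 h to 8 h in Dib1 and 0 fell at 4 h in Snu114; with gene minus intron reads as denominator 8 fell there.

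Single values that changed sign on the intron scale, by comparison, were as follows. Dib1 4 h gave RPL35B -0.89, RPL28 -1.17, RPL18B -0.90 and RPL36B -0.76. Dib1 8 h against 4 h gave RPL2A -0.057, RPL14B -0.27, RPL27A -0.62, RPL36A -0.45 and RPL18B -1.03 (gene scale -0.35). Dib1 8 h gave RPL35B -1.08, RPL28 -0.64 and RPL18B -1.92. Snu114 4 h gave, on the gene and intron scale, RPL2A 0.69 and 0.92, RPL42B 0.40 and 0.63, RPL26A 0.58 and 0.82, and RPL36B 0.55 and 0.78. Snu114 8 h against 4 h gave RPL35B -1.30, RPL28 -1.15, RPL18B -1.28 and RPL36B -1.39. Snu114 8 h gave RPL35B -0.71, RPL28 -1.33 (gene scale -0.003), RPL26B -0.74 and RPL18B -0.82.

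Gene levels depended on the tool, the block and the intron reads. DESeq2 called 8 up and 1 down at 4 h in Dib1, 25 down from 4 h to 8 h in each strain, 19 up at 4 h and 2 down at 8 h in Snu114. Gene minus intron reads gave 0 up and 1 down at 4 h, 0 up and 46 down at 8 h and 30 down between them in Dib1, and 5 down at 8 h and 13 down from 4 h in Snu114. Values that changed sign were, at 4 h, RPL14B -0.51, RPL27A -0.38, RPL43B -0.21 and RPL36A -0.79, and at 8 h RPL14B -1.35, RPL27A -1.06 and RPL36A -1.57. The replicate block gave 7 up at 4 h in Dib1. In Snu114, where pairing by number was not settled, it gave 34 up at 4 h, 28 down from 4 h to 8 h, and 3 up and 3 down at 8 h. Without the block these were 6, 6, 0 and 1.

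For the paralog gene balance, gene minus intron reads gave 0 up and 0 down at 4 h, 3 up at 8 h and 1 up from 4 h to 8 h in Dib1, 1 down at 4 h in Snu114, and -0.30 for RPL36. The block gave 3 up and 3 down at 4 h, 8 down at 8 h and 5 down from 4 h in Dib1, and 7 down from 4 h to 8 h and 4 up at 8 h in Snu114. For the paralog intron ratio the block gave 6 up at 4 h and 3 up and 4 down from 4 h to 8 h in Dib1, and 1 down at 4 h, 2 down from 4 h and 3 up at 8 h in Snu114. The gene minus intron denominator gave 1 up and 1 down at 8 h and 0 down from 4 h in Dib1, 1 up from 4 h in Snu114, and 1.15 for RPL36. The strain difference of pairs at 4 h had 2 up and 1 down with that denominator and 2 up and 6 down with the block, and that of single members in galactose 1 up with that denominator. The cause was not tested.

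Leaving out 1 library at a time gave these ranges of counts. Gene level in Dib1 had 1 to 9 up at 4 h, 1 to 4 up and 11 to 24 down at 8 h, and 5 to 32 down from 4 h; in Snu114, 0 to 19 up at 4 h, 0 to 1 down at 8 h and 0 to 9 down from 4 h. The intron ratio in Snu114 had 6 to 32 down at 4 h. Gene balance in Dib1 had 0 to 1 up and 0 to 2 down at 4 h, 1 to 6 down at 8 h and 1 to 3 up from 4 h, and in Snu114 1 to 3 up and 1 to 4 down at 8 h. The paralog intron ratio in Dib1 had 1 to 3 up at 4 h, 1 to 5 up and 1 to 3 down at 8 h, and 0 to 2 up and 0 to 3 down from 4 h; in Snu114, 0 to 1 down at 4 h, 1 to 2 down at 8 h and 1 to 5 up from 4 h. The strain difference of pairs had 1 to 4 down at 4 h and 0 to 1 up at 8 h, and that of members in galactose 1 to 2 up and 0 to 1 down. Estimates near 0 changed sign with 1 library left out: at 4 h in Snu114 RPL2A ranged up to 0.20 and RPL42B from -0.18 to 0.19 (0.13 without 4 h replicate 1), RPL36B from -0.36 to 0.0674, and at 8 h RPL18B from -0.0601 to 0.24. Having 3 libraries a group, gene reads shared between near-identical copies and an unstated counting of intron reads all limit these values.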

Other observations

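The tests that the authors deposited for their own normalised introns differ from the ratio to gene reads. For introns the authors' deposited table had 25 members up and 6 down at 4 h in Dib1 cells, and 21 up and 9 down at 8 h. For Snu114 the authors' deposited table had 3 up at 4 h, and 18 up and 6 down at 8 h. Between 4 h and 8 h the authors' deposited table had 3 introns down and none up in Dib1 cells, and 21 up and 13 down in Snu114 cells. For gene levels the authors' deposited table gave 8 rises and 1 fall at 4 h in Dib1 cells, then 3 rises and 20 falls at 8 h, and for Snu114 19 rises at 4 h and 2 falls at 8 h. These counts cover the members only. The share of all hosts or genes called by the authors' tests was not computed, so the counts do not compare members with other genes.

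RPL33A, whose copies differ in intron share, had its lowest share in replicate 3 of each group: 0.883% against 1.92% and 1.98% in galactose, 5.30% against 11.1% and 12.6% at 4 h and 19.9% against 37.8% and 37.8% at 8 h in the Dib1 strain, and 1.27%, 0.969% and 9.96% as the replicate 3 values in the Snu114 strain. It was singled out after its values were seen, and no explanation was tested.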
